A study of Mus musculus with 14 samples.

Results

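The effect of losing the lymphotoxin beta receptor was compared between the aorta and CD115+ blood cells of mice that lack apolipoprotein E and are prone to atherosclerosis. For each gene the difference between genotypes was taken within each tissue, and the difference of those 2 differences, called the interaction here, was tested across tissues. All 14 arrays of the study and all 22180 genes with a probe set of their own entered. The double-deficient mice were ApoE/LTbR-double deficient (apoE-/-LTbR-/-), and the controls were their ApoE deficient (apoE-/-) littermates, so every animal lacked apolipoprotein E. All mice were male, ate a Western type diet from 8 weeks of age for 4 weeks, and were 12 weeks old at sampling. Aorta, taken with its perivascular adipose tissue, gave 4 double-deficient and 4 ApoE-deficient arrays. Cells bound by CD115 beads from blood gave 3 double-deficient and 3 ApoE-deficient arrays, and ApoE-deficient replicates 3 and 4 were each a pool of 2 littermates. Whether an aorta and a blood preparation came from 1 animal is not in the labels. Separate animals are named only for the pools, so p-values measure the spread between these samples. The question put by the comparison was which genes responded to the loss of the receptor alike in vessel and blood, and which in opposite directions.

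The lymphotoxin beta receptor belongs to the tumour necrosis factor receptor family. It is carried by stromal, endothelial and myeloid cells and binds lymphotoxin made by lymphocytes. Its signal runs through the non-canonical NF-kB pathway, and mice without it lack lymph nodes and Peyer's patches. CD115 is the receptor for macrophage colony-stimulating factor, Csf1r, and marks blood monocytes. Ly6C-high monocytes enter inflamed tissue, and Ly6C-low monocytes patrol the vessel wall.

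Values are log signals, read as log2, relative to the median of a probe set over the arrays of 1 tissue. They therefore show which arrays of a tissue were high or low, but no level of a gene or of a tissue. A negative difference means lower in double-deficient samples. Over all genes the median difference was 0.01 in aorta and -0.01 in CD115+ cells, and the median residual SD of a gene was 0.191 in aorta and 0.110 in CD115+ cells. Over probe sets, the SD of 1 array was 0.267 to 0.464 in aorta and 0.134 to 0.249 in CD115+ cells. Some arrays stood apart. In aorta, ApoE-deficient replicate 3 was low in lymphocyte genes and lay near the double-deficient arrays. Among the CD115+ arrays, double-deficient replicate 1 often lay on the other side of the ApoE-deficient arrays from double-deficient replicates 2 and 3, and double-deficient replicate 2 had the highest means of the platelet (1.75) and neutrophil (1.2) marker lists. Values without these arrays are given where they bear on a result.

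The rounding of the stored values gave a coarse guide to level. Genes whose values in a tissue all carry the rounding step of 2 to the power -20 formed a high signal class. The class was meant to hold stored levels of at least 8. It held 14.7% of genes in aorta and 10.4% in CD115+ cells. Of 1088 olfactory receptor genes, which neither tissue is known for, it held 0.827% and 3.12%. A gene of lower level can carry the step by chance, so membership does not fix the level of a single gene. Csf1r, which encodes CD115, was in this class in both tissues. The CD115+ arrays also carried strong signal of fat and vessel genes. Of the 12 adipocyte markers, 12 were in the class in aorta and 10 in CD115+ cells, among them Adipoq, the fat hormone adiponectin. Ucp1, the uncoupling protein of brown fat, and the smooth muscle genes Acta2, Myh11 and Tagln were also in the class in both tissues. Of 15 B cell and 15 T cell markers, 0 were in the class in CD115+ cells. Of 11 Ly6C-high monocyte markers 8 were, and of 14 Ly6C-low markers 8.

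Ltbr, the gene deleted in the double-deficient mice, was lower in both tissues. The double-deficient aortas stood at -0.98, -1.10, -1.29 and -0.49, and the ApoE-deficient aortas at 0.63, 0.49, 0.70 and 0.89. The double-deficient CD115+ arrays stood at -0.07, -0.62 and -0.44, and the ApoE-deficient ones at 0.55, 0.07 and 0.40. The genotypes did not overlap in either tissue. The difference was -1.64 (SE 0.17) in aorta and -0.72 (SE 0.18) in CD115+ cells. Averaged over both tissues Ltbr changed by -1.18 (SE 0.13, log2, adjusted p = 0.0341, limma) and was the 1 gene of 22180 past the adjusted threshold of 0.05 for this average (0.00451%). The exact two-sided permutation of genotype within tissue gave p = 0.00143 for the average, the smallest that its 1400 arrangements allow. The adjusted p of the average was above the threshold without any 1 of 11 arrays (range over all 14 arrays left out 0.00574 to 0.207). It stayed below without aorta double-deficient replicate 4, aorta ApoE-deficient replicate 3 or CD115+ double-deficient replicate 1. The interaction was -0.92 (SE 0.27), with an unadjusted p of 0.00500 and an adjusted p of 0.591 in limma. The exact two-sided permutation gave p = 0.221 for the interaction. It shuffled genotype in both tissues and so assumed no difference in either, and cannot decide whether the tissue differences are equal. The interaction of Ltbr passed the unadjusted threshold of limma and not the adjusted one. Where its probe set lies relative to the deletion is not given in the sources used here.

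No gene passed the adjusted test of a difference between tissues. With limma, 0 of 22180 interactions had an adjusted p under 0.05 (smallest adjusted p 0.219), and 1530 had an unadjusted p under 0.05 (6.9%). Of these, 774 were more negative in aorta (3.49%) and 756 more positive (3.41%). Robust variances, array weights and variances without moderation also gave 0 adjusted calls, with 1497, 2736 and 1448 unadjusted ones. The average over tissues had an unadjusted p under 0.05 for 908 genes, 426 lower (1.92%) and 482 higher (2.17%). The 12 genes of smallest interaction p are given as values for that reason. On the negative side stood genes of lymphocytes. Ly6d, a surface protein of lymphoid cells, had an interaction of -5.05 (SE 0.82), H2-DMb2, a chain of the peptide-exchange factor of class II molecules, -4.47 (SE 0.88), and Lef1, a transcription factor of lymphocyte development, -2.30 (SE 0.47). The co-receptors of T cells were at -2.27 (Cd8a, SE 0.39) and -1.24 (Cd4, SE 0.22), and Trp53inp1, a target of p53, at -1.95 (SE 0.33). On the positive side stood genes of other kinds. Cdh19, a cadherin of Schwann cell precursors, was at 1.31 (SE 0.21), Lgals4, a galectin, at 1.06 (SE 0.17), and Zfhx4, a zinc finger transcription factor, at 0.92 (SE 0.14). Bmpr2, a receptor of bone morphogenetic proteins, was at 0.80 (SE 0.13), Nbea, a protein of membrane traffic, at 0.76 (SE 0.11) and Ankrd46 at 0.68 (SE 0.12). In CD115+ cells the differences of Cd4, Nbea and Ankrd46 were 0.00, -0.07 and -0.08, so their interactions lay almost wholly in aorta.

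**Figure D1:**
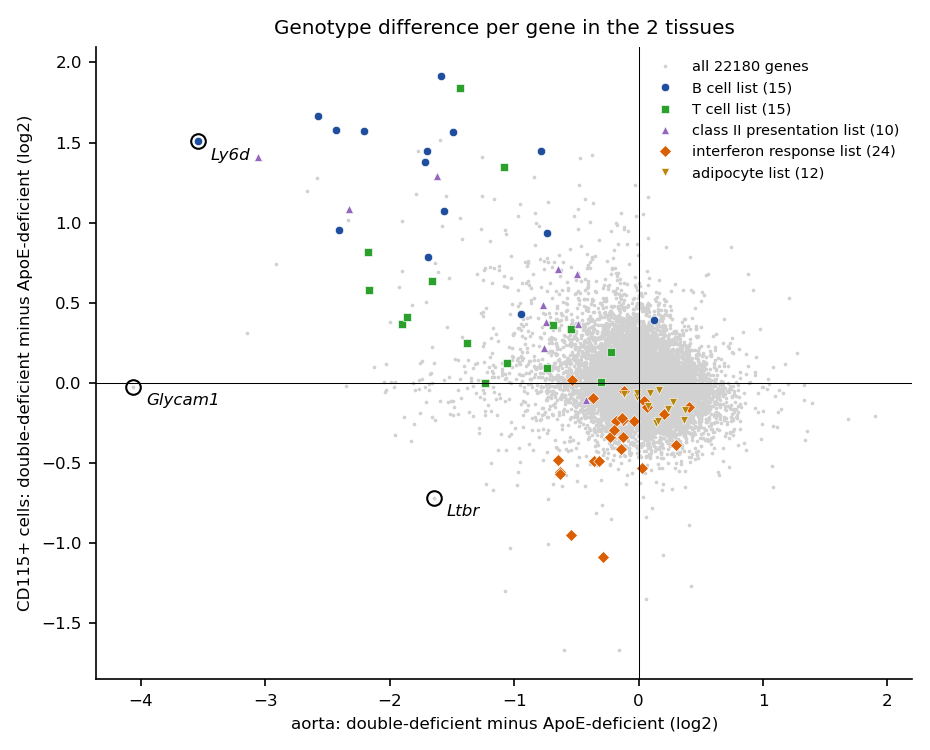
Each point is 1 of 22180 genes, with the genotype difference in aorta on the x axis and in CD115+ cells on the y axis (both log2, double-deficient minus ApoE-deficient). B cell, T cell and class II genes lie at the upper left, interferon response genes mostly at the lower left, and Ly6d (-3.54, 1.51), Glycam1 (-4.06, -0.02) and Ltbr (-1.64, -0.72) are circled.

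Across genes the differences in the tissues ran against each other more often than together. By sign alone, 23.2% of genes were negative in aorta and positive in CD115+ cells, 31.3% the reverse, 23.9% negative in both and 21.5% positive in both. The correlation across genes was -0.27 (Pearson) and -0.16 (Spearman), where genes are not independent replicates and those of each tissue share its arrays. Leaving out 1 array moved the Pearson value between -0.118 (without CD115+ double-deficient replicate 2) and -0.363 (without CD115+ double-deficient replicate 1). Of the 846 genes lower in aorta at an unadjusted p under 0.05 (3.81%), 65.7% had a positive difference in CD115+ cells. Of the 867 higher in aorta (3.91%), 66.1% had a negative one. In CD115+ cells 517 genes were lower (2.33%) and 457 higher (2.06%) at that threshold. The 99 genes past it in both tissues were 5.78% of the 1713 aorta genes and 10.2% of the 974 CD115+ genes. Of the 99, 27 went the same way in both tissues (0.122% of all genes) and 72 opposite ways (0.325%). After adjustment over all genes 0 of either kind passed (limma).

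The shared genes were 13 with negative (0.0586%) and 14 with positive (0.0631%) differences in both tissues. That split moved with the samples used, to 9 and 24 without aorta double-deficient replicate 2, 22 and 7 without CD115+ ApoE-deficient replicate 3, and 22 and 5 without the pooled preparations. The genotypes did not overlap for 953 genes in aorta (4.3%), for 2031 in CD115+ cells (9.16%) and for 28 in both tissues with the same sign (0.126%), 13 lower (0.0586%) and 15 higher (0.0676%). Besides Ltbr, the named genes past both criteria on the lower side were Ift43 and Gal3st2b. Ift43, a part of the transport complex of cilia, differed by -0.36 in aorta and -0.29 in CD115+ cells. Its aorta values were -0.16, -0.10, -0.01 and -0.45 against 0.15, 0.01, 0.19 and 0.36, and its CD115+ values -0.03, -0.04 and -0.32 against 0.03, 0.26 and 0.19. The gap between the nearest arrays of the genotypes was therefore small in both tissues. Gal3st2b, of a family of galactose sulphotransferases, differed by -0.81 and -0.19.

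On the higher side, without overlap in either tissue, were Zfp871, Clca3a2, P4ha3 and Cecr2. Zfp871, a zinc finger protein, stood at 0.22, 0.05, 0.45 and 0.35 in double-deficient aortas and at -0.38, -0.12, -0.05 and -0.24 in the controls, a difference of 0.46. Its CD115+ values were 0.01, 0.26 and 0.29 against -0.32, -0.01 and -0.13, a difference of 0.34, and in both tissues 1 double-deficient array lay close to the controls. Cecr2, a bromodomain protein of chromatin remodelling, differed by 0.52 and 0.55, with CD115+ double-deficient replicate 2 at 0.89 and replicates 1 and 3 at 0.06 and 0.24. Clca3a2, of a family of chloride channel regulators, differed by 0.46 and 0.36. P4ha3, an enzyme of collagen maturation, differed by 0.21 and 0.11.

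Other genes of this shared set, chosen after their values were seen, included 2 that Ly6C-high monocytes carry, Ly6c2 and Ms4a4c. Most of the Ly6C-high marker list, which holds Ly6c2, did not share this pattern. Of its 11 markers, 3 were negative in both tissues and 8 were positive in aorta and negative in CD115+ cells. Ly6c2, which encodes the antigen Ly6C, differed by -1.07 in aorta and -1.30 in CD115+ cells. It stood at -0.11, -0.54, 0.11 and -0.69 in double-deficient aortas and at 1.5, 1.30, -0.28 and 0.53 in the controls. In CD115+ cells it stood at -2.08, -0.42 and -0.15 against 0.53, 0.15 and 0.56. The genotypes were apart in CD115+ cells and overlapped in aorta through ApoE-deficient replicate 3. Ms4a4c, a membrane protein of the same family as the B cell antigen CD20, differed by -1.03 in both. Igfbp6, a binding protein of insulin-like growth factors, differed by -0.34 and -0.51, Siva1, a protein of apoptosis, by -0.33 and -0.43, and Pclaf, a factor bound to the replication clamp, by -0.83 and -0.21. Irs2, an adaptor of the insulin receptor, was higher by 0.54 and 0.68 and Cpox, an enzyme of haem synthesis, by 0.60 and 0.29.

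**Figure D2:**
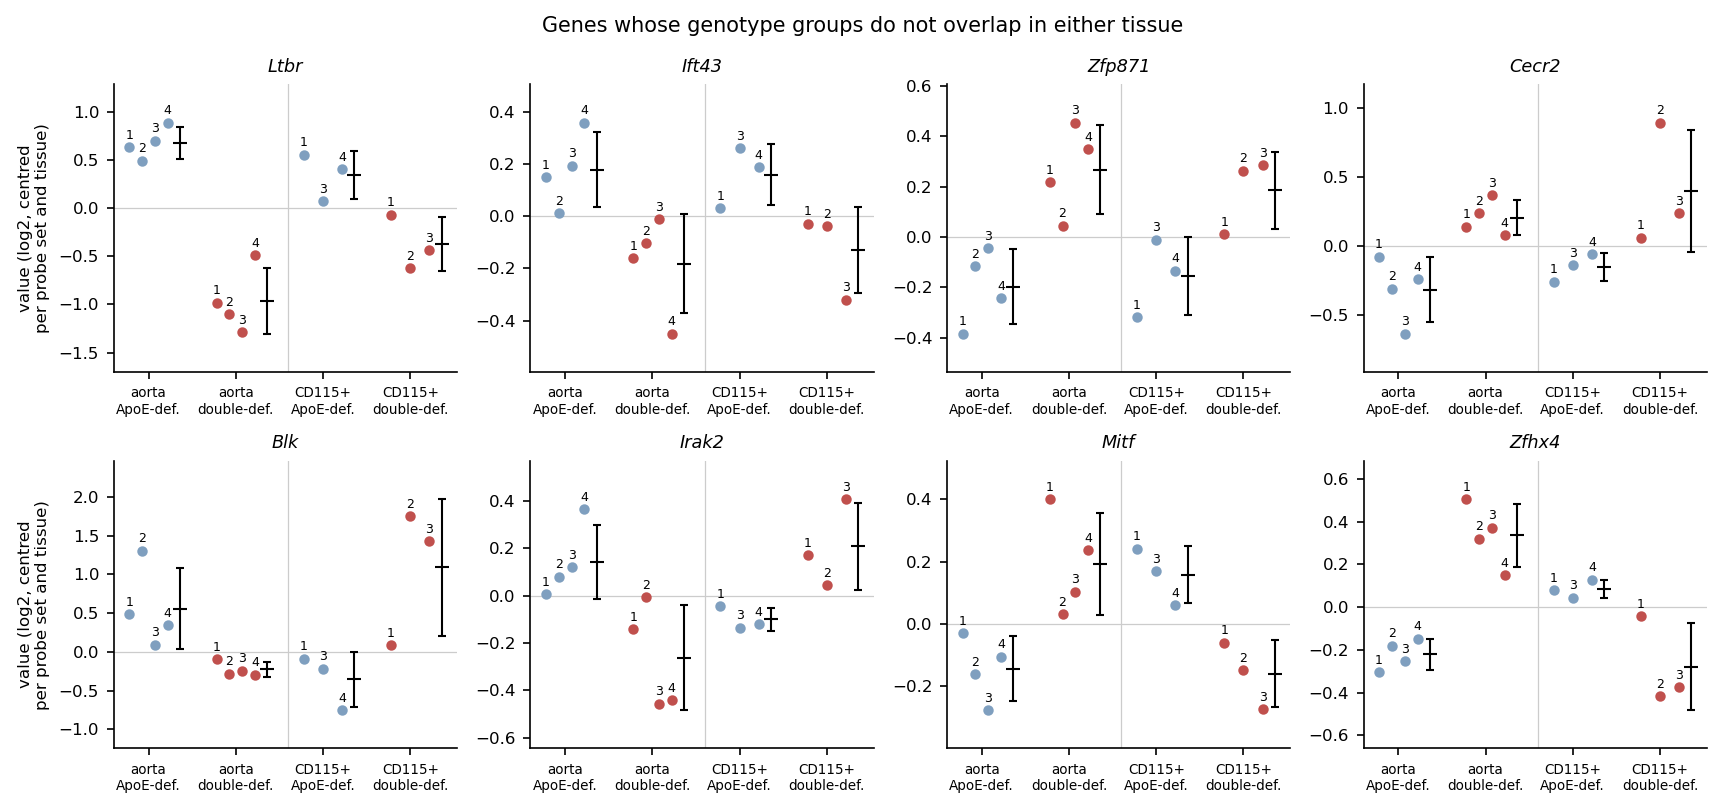
Values of 8 genes on every array (points with replicate numbers, log2, centred per probe set and tissue) by tissue and genotype, with the group mean and SD beside them. Ltbr, Ift43, Zfp871 and Cecr2 differ the same way in both tissues, Blk and Irak2 are lower in double-deficient aortas and higher in double-deficient CD115+ cells, and Mitf and Zfhx4 the reverse, in each case with no overlap of genotypes within a tissue.

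B cell genes had negative differences in aorta and positive differences in CD115+ cells. Of 15 markers measured, 14 were negative in aorta and positive in CD115+ cells, against 23.2% of all genes, and 14 had a negative interaction at an unadjusted p under 0.05, against 3.49%. The members of this and the later lists were chosen with earlier results of these data known. Their counts beside those of all genes are therefore descriptive and not independent support. The medians of the list were -1.69 in aorta, 1.44 in CD115+ cells and -3.10 for the interaction, where all genes had 0.02. In bulk samples like these, fewer cells of a type and less RNA per cell cannot be told apart. In double-deficient aortas Ly6d stood at -1.57, -1.32, -1.99 and -2.43, and in ApoE-deficient aortas at 2.21, 1.95, 1.38 and 1.32. In CD115+ cells it stood at -0.45, 2.29 and 0.87 against 0.45, -0.91 and -1.36. The aortas were apart by more than 2 on every array pair, and the CD115+ groups overlapped through replicate 1 of both genotypes (differences -3.54 and 1.51). Blk, a Src-family kinase of B cells, was the 1 marker with no overlap in either tissue. It stood at -0.09, -0.28, -0.24 and -0.29 against 0.48, 1.30, 0.09 and 0.34 in aorta, and at 0.09, 1.75 and 1.43 against -0.09, -0.22 and -0.75 in CD115+ cells, for differences of -0.78 and 1.44. Pou2af1, a coactivator of B cells chosen after its values were seen, also had p under 0.05 in both tissues (-1.49 and 1.57). Cd79a, which carries signals of the B cell receptor, differed by -2.21 and 1.57, Cd22, an inhibitory lectin receptor, by -1.70 and 1.45, and Fcer2a, the low-affinity IgE receptor, by -2.57 and 1.67. The higher CD115+ values came from double-deficient replicates 2 and 3. On CD115+ arrays the list mean was -0.24, 1.76 and 0.90 with double deficiency and 0.23, -0.78 and -0.75 in controls, so replicate 1 of each genotype went the other way. In aorta it ran from -0.46 to -0.26 in double-deficient arrays and was 2.06, 2.10, -0.10 and 1.29 in ApoE-deficient ones.

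T cell genes had the same pattern at smaller size. By sign, all 15 measured markers were negative in aorta and positive in CD115+ cells, against 23.2% of all genes. Cd4 had almost no difference in CD115+ cells, and 4 markers were higher there at an unadjusted p under 0.05 (2.06% of all genes). Of the 15, 13 had a negative interaction at an unadjusted p under 0.05, against 3.49%. The medians were -1.24 in aorta, 0.36 in CD115+ cells and -1.62 for the interaction. The number with this pair of signs was 13 without CD115+ double-deficient replicate 1 and 12 without the pooled preparations. Lef1 stood at -0.63, -0.16, -0.95 and -0.62 against 1.64, 1.62, 0.16 and 0.86 in aorta and at -0.01, 0.89 and 0.58 against 0.01, -0.28 and -0.19 in CD115+ cells, differences of -1.66 and 0.64. The genotypes were apart in aorta and overlapped in CD115+ cells through replicate 1. Cd8a differed by -1.86 and 0.41, and Cd3d, of the CD3 complex, by -2.17 and 0.58, the latter with no overlap in either tissue. Among markers chosen after their values were seen, the homing receptor gene Ccr7 differed by -1.08 and 1.35, the adhesion receptor gene Cd2 by -1.43 and 1.84, and Cd3g by -2.17 and 0.82. With Lef1 these were the 4 T cell markers past p under 0.05 in both tissues. The adaptor genes Lat (-1.53, 0.65) and Blnk (-1.26, 1.41), the heavy chain gene Ighm (-1.61, 0.69) and Myb (-0.71, 0.38), all of lymphocytes or their precursors and outside the lists, were picked from the opposite genes after their values were seen.

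Class II antigen presentation genes are expressed by B cells, dendritic cells and some monocytes. Of 10 members, 9 were negative in aorta and positive in CD115+ cells, against 23.2% of all genes. The medians were -0.75 in aorta, 0.58 in CD115+ cells and -1.21 for the interaction. Of the 10, 8 had a negative interaction at an unadjusted p under 0.05, against 3.49% of all genes. In the tissue tests 7 were lower in aorta at that threshold (3.81% of all genes) and 1 was higher in CD115+ cells (2.06%). Of the 10, 0 passed it in both tissues. H2-DMb2 stood at -0.77, -0.44, -1.12 and -1.30 against 2.85, 3.22, 0.44 and 2.07 in aorta. In CD115+ cells it stood at -0.18, 1.88 and 1.08 against 0.18, -1.03 and -0.61. Its aorta groups were apart and its CD115+ groups overlapped through replicate 1 (differences -3.05 and 1.41). H2-Ob and H2-Oa, the chains of the inhibitor of that exchange factor, differed by -1.62 and -2.33 in aorta and 1.29 and 1.09 in CD115+ cells. Without aorta ApoE-deficient replicate 3 the interaction medians were -3.64 (B cell), -1.70 (T cell) and -1.49 (class II), with 14, 14 and 9 members at an unadjusted p under 0.05. Without CD115+ double-deficient replicate 2 they were -2.64 (B cell), -1.56 (T cell) and -0.98 (class II), with 12, 11 and 4 members at an unadjusted p under 0.05. Without the pooled preparations they were -2.36, -1.79 and -1.01, with 4, 10 and 2. The means of the platelet and neutrophil lists were also highest on CD115+ double-deficient replicate 2, and their part in these differences was not tested.

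**Figure D3:**
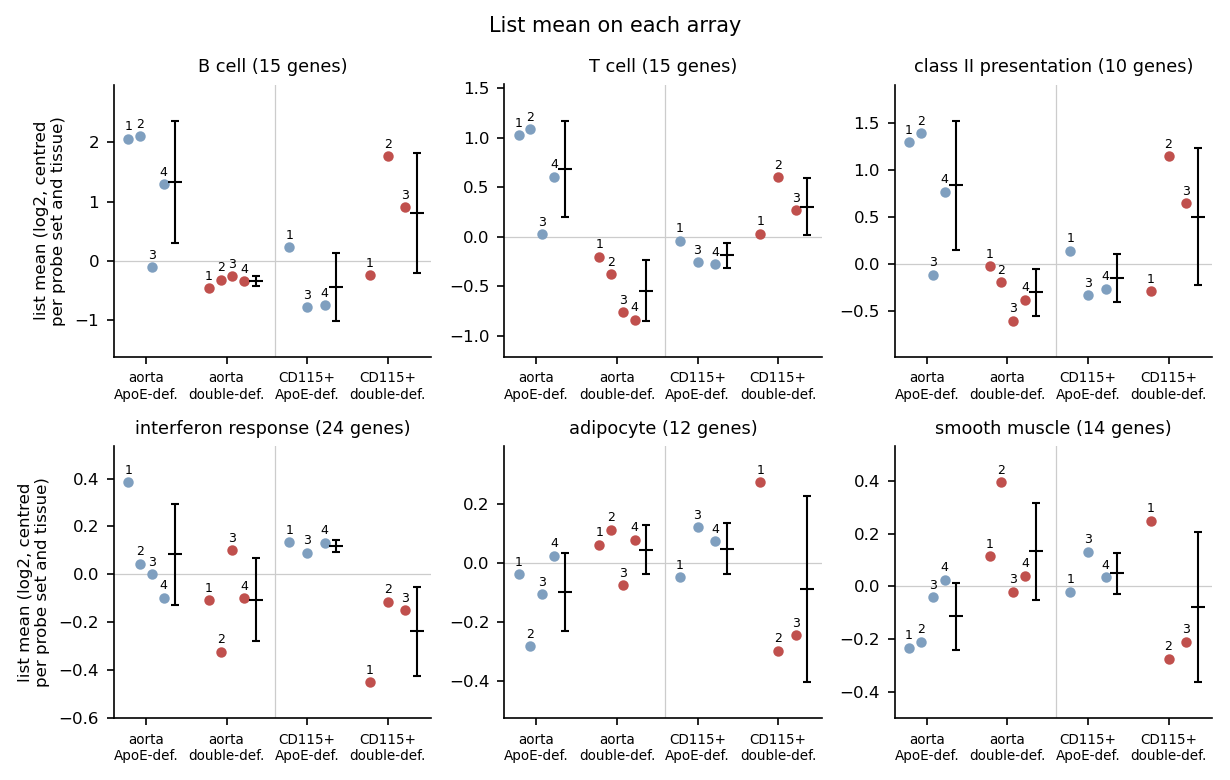
Mean of 6 gene lists on every array (points with replicate numbers, log2, centred per probe set and tissue) by tissue and genotype, with the group mean and SD. The B cell, T cell and class II means are low in double-deficient aortas and high on CD115+ double-deficient arrays 2 and 3, the interferon response means of CD115+ cells are apart by genotype, and the adipocyte and smooth muscle means of CD115+ double-deficient array 1 lie opposite to arrays 2 and 3.

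Genes of the receptor's own pathway had negative differences in aorta, with a median near 0 in blood. Of 14 measured, the deleted gene Ltbr included, 10 were negative in aorta and positive in CD115+ cells, against 23.2% of all genes. Of the 14, 7 had a negative interaction at an unadjusted p under 0.05, against 3.49%, and Ltbr was 1 of the 7. The medians were -0.36 in aorta, 0.03 in CD115+ cells and -0.44 for the interaction, and without aorta ApoE-deficient replicate 3 they were -0.58, 0.03 and -0.68. Without aorta ApoE-deficient replicate 4 the interaction median was -0.31, the least negative with 1 array left out. Ltb, which encodes the lymphotoxin beta ligand, stood at -0.41, -0.34, -0.22 and -0.13 in double-deficient aortas and at 3.55, 3.01, 0.13 and 2.87 in the controls. In CD115+ cells it stood at -0.40, 1.80 and 1.19 against 0.40, -0.89 and -0.52. The ligand thus followed the lymphocyte lists, with ApoE-deficient aorta 3 near the double-deficient arrays and CD115+ replicate 1 turned (differences -2.66 and 1.2). Relb, the transcription factor at the end of the non-canonical pathway, differed by -0.32 and 0.11, and Birc2, an inhibitor of that pathway, by -0.39 and 0.21. In the list of canonical NF-kB and cytokine genes the medians were -0.05 and 0.18 and 3 of 18 had a negative interaction at that threshold. Tnfaip3, the deubiquitinase A20 that limits NF-kB, had p under 0.05 in both tissues, at -0.62 and 0.70. Irak2, a kinase of interleukin 1 and Toll-like receptors outside the list, stood at -0.14, -0.01, -0.46 and -0.44 against 0.01, 0.08, 0.12 and 0.37 in aorta and 0.17, 0.04 and 0.41 against -0.04, -0.14 and -0.12 in CD115+ cells. Its genotypes did not overlap in either tissue (-0.40 and 0.31).

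Lymphoid stroma and high endothelial venules, through which lymphocytes enter lymph nodes, were represented by 11 markers, with medians of -0.55 in aorta and -0.02 in CD115+ cells and 5 of 11 negative interactions at an unadjusted p under 0.05, against 3.49% of all genes. Of these 5, Cr2 and Fcer2a are also in the B cell list. Without aorta ApoE-deficient replicate 3 the aorta and interaction medians were -0.75 and -0.68. Without aorta ApoE-deficient replicate 4 the interaction median was -0.33, the least negative with 1 array left out. Glycam1, a mucin ligand of such venules, was at -1.03, -1.07, -1.84 and -0.70 against 3.89, 3.86, 0.70 and 3.13 in aorta. Its CD115+ values were -0.01, 0.01 and -0.05 against 0.05, -0.04 and 0.02. The aortas were apart by more than 1 and the blood arrays overlapped (differences -4.06 and -0.02). Chst4, a sulphotransferase of venule ligands, differed by -0.83 and 0.10, and the complement receptor Cr2, which B cells and follicular dendritic cells carry, by -2.41 and 0.96. Natural killer and plasma cell lists had medians of -0.29 and -0.18 in aorta and 0.01 and -0.01 in CD115+ cells. Nkg7, of cytotoxic granules, differed by -0.91 and 0.24, Klrd1, a lectin receptor chain, by -1.89 and -0.21, Mzb1, a chaperone of antibody assembly, by -2.0 and 0.38 and the transcription factor Irf4 by -0.58 and 0.49. In the dendritic cell list (medians -0.18 and 0.04) Ccr9, a homing receptor of plasmacytoid dendritic cells, differed by -0.63 and 0.11 with no overlap in either tissue. Siglech, their lectin, differed by -1.19 and 0.16. Batf3, a factor of conventional dendritic cells, was turned the other way (0.66 and -0.04).

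Interferon response genes had negative differences in both tissues. Interferons act on cells through STAT proteins, and their target genes limit the replication of viruses. Of 24 measured, 17 were negative in both tissues against 23.9% of all genes, with medians of -0.16 in aorta and -0.31 in CD115+ cells. In the tissue tests 0 passed an unadjusted p under 0.05 in aorta (3.81% of all genes lower) and 8 in CD115+ cells (2.33% of all genes lower), so 0 counted as shared by that threshold. The interaction median was 0.15, and 1 member, Oas2, had an interaction at an unadjusted p under 0.05. Without CD115+ double-deficient replicate 1 the CD115+ median was -0.18. A second list of the AIM2-like and OAS families, which sense foreign DNA and RNA and share members with the first, had 7 of 12 negative in both, with medians of -0.23 and -0.46.

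The promoters of interferon response genes are shown for 3 members chosen after their values were seen, because they hold a motif of the kind bound by interferon regulatory factors. They had the most negative differences, averaged over tissues, of the 9 members that hold it, among which Rsad2 and Ifit3 were at -0.04 and Stat2 at 0.13. The 250 bases before the start of each gene are given from RefSeq (GRCm38.p6), 5′ to 3′ on the gene's strand. Capitals mark matches to GAAA, any 2 bases and GAAA again, searched on both strands. Bst2 lies at chr8:71537473-71537722, Cxcl10 at chr5:92348890-92349139 and Oas3 at chr5:120777660-120777909, all on the minus strand.
Bst2: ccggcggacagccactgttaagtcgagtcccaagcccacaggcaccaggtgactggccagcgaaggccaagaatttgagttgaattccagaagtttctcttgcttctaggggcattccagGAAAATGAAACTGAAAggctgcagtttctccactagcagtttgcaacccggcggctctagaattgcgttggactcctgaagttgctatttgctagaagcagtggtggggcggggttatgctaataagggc
Cxcl10: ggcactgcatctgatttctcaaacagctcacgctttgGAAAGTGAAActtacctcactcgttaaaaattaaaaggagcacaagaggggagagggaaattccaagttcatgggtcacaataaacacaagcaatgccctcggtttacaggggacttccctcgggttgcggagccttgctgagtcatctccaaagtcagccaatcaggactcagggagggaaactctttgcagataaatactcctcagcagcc
Oas3: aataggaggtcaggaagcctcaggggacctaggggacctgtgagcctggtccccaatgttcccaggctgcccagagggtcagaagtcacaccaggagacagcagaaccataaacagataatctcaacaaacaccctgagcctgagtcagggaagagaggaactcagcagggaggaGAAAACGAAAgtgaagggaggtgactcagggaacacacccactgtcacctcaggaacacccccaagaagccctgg
The motif was in 9 of the 17 interferon response genes found in the promoter table (52.9%), 6 of 9 of the AIM2-like and OAS families (66.7%), 2 of 11 B cell markers (18.2%), 0 of 9 T cell markers and 936 of all 27025 promoters (3.46%). In Bst2 2 matches overlap, 114 bases before the start, and in Cxcl10 and Oas3 1 match lies 203 and 65 bases before it.

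Bst2, the tether that holds budding viruses at the cell surface, stood at -0.07, -0.69, 0.07 and -0.32 in double-deficient aortas and at 0.33, 0.12, -0.13 and 0.10 in the controls. In CD115+ cells it stood at -0.50, -0.06 and -0.54 against 0.22, 0.06 and 0.11. The CD115+ groups were apart and the aorta groups overlapped, with differences of -0.49 and -0.36. Cxcl10, a chemokine for T cells, differed by -0.32 in aorta and -0.48 in CD115+ cells, and Oas3, a sensor of double-stranded RNA, by -0.14 and -0.41. Oas2, of the same family, stood at -0.05, -0.59, 0.11 and 0.03 against 0.65, -0.03, -0.07 and 0.10 in aorta and at -1.33, -0.81 and -0.24 against 0.26, 0.24 and 0.39 in CD115+ cells. Its blood groups were apart and its aortas were not (-1.09 and -0.29). The DNA sensor family member Ifi205 differed by -0.16 and -1.67 and Oasl2 by 0.03 and -0.53, while Ifit2, an RNA-binding antiviral protein, was at 0.30 and -0.39.

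**Figure D4:**
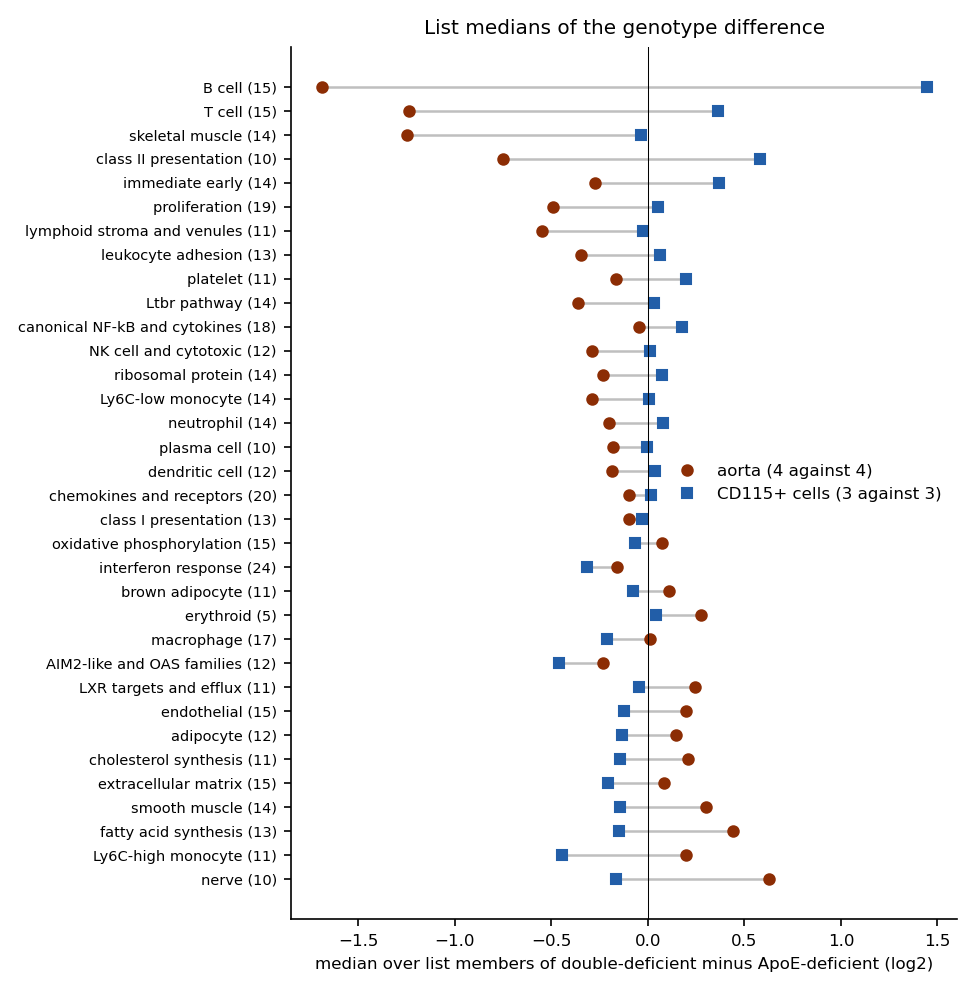
Median genotype difference of 34 gene lists (log2, number of genes measured in brackets) in aorta (circles) and CD115+ cells (squares), joined by a line and sorted by the difference between tissues. B cell markers have the widest gap (-1.69 and 1.44), and the interferon response (-0.16 and -0.31) and AIM2-like and OAS lists (-0.23 and -0.46) lie on the same side of 0 in both tissues.

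Of 11 markers of Ly6C-high monocytes, 8 were positive in aorta and negative in CD115+ cells, against 31.3% of all genes, and 3, among them Ly6c2, were negative in both. Of the 11, 4 had a positive interaction at an unadjusted p under 0.05 (3.41% of all genes), with medians of 0.20, -0.44 and 0.60. Vcan, a matrix proteoglycan of monocytes, stood at -0.12, -0.45 and -0.12 in double-deficient CD115+ cells and at 0.41, 0.12 and 1.46 in the controls, a difference of -0.89 against 0.40 in aorta. The 3 ApoE-deficient preparations lay above the double-deficient ones. Chil3, a chitinase-like protein, differed by 0.42 and -1.27 and F13a1, a subunit of clotting factor XIII, by 0.23 and -0.44, both with no overlap in CD115+ cells and with overlap in aorta. Markers of Ly6C-low monocytes had medians of -0.29 and 0.00, and the interaction median turned from -0.27 to 0.09 without CD115+ double-deficient replicate 3. Treml4, a receptor of these cells, differed by -0.65 and -0.01. The macrophage list had medians of 0.01 and -0.21, and its aorta value was -0.09 without aorta double-deficient replicate 1. Gpnmb, a glycoprotein of lipid-laden macrophages, differed by 0.60 and -0.31 and the mannose receptor gene Mrc1 by 0.33 and -0.19. The neutrophil and platelet lists had interaction medians of -0.22 and -0.44, which turned to 0.13 and 0.32 without CD115+ double-deficient replicate 2.

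By sign, vessel wall, fat and nerve genes mostly had positive differences in aorta and negative ones in CD115+ cells. This pair of signs was seen for 12 of 14 smooth muscle, 12 of 15 endothelial, 13 of 15 extracellular matrix, 9 of 12 adipocyte and 8 of 10 nerve markers, against 31.3% of all genes. Positive interactions at an unadjusted p under 0.05 numbered 2, 4, 2, 2 and 5, against 3.41% of all genes. In the aorta test 3, 1, 2, 2 and 5 were higher at that threshold (3.91% of all genes). In the CD115+ test 1 matrix member was lower (2.33% of all genes) and 0 of the other lists. In each list 0 members were past it in both tissues. The medians in aorta and CD115+ cells were 0.30 and -0.14 for smooth muscle, 0.20 and -0.12 for endothelium, 0.08 and -0.20 for matrix, 0.15 and -0.13 for fat, and 0.63 and -0.16 for nerve. Contractile and adipocyte genes are not typical of monocytes. On the CD115+ arrays the smooth muscle, matrix and adipocyte means were 0.25, 0.21 and 0.27 in double-deficient replicate 1, from -0.34 to -0.21 in replicates 2 and 3, and from -0.06 to 0.17 in the ApoE-deficient preparations. Fat and vessel signal thus varied among the CD115+ preparations in step across lists, with 10 of 12 adipocyte markers in the high signal class there, and its part in these differences was not tested. Without double-deficient replicate 1 the interaction medians of the adipocyte and matrix lists were 0.48 and 0.55, from 0.31 and 0.33. The lowest with 1 array left out was 0.20 for adipocyte markers, without CD115+ double-deficient replicate 3. For matrix it was 0.24, without aorta double-deficient replicate 1.

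Tagln and Myh11, contractile proteins of smooth muscle, differed by 0.29 and -0.30 and by 0.45 and -0.17, Acta2 by 0.31 and -0.12, and Itga8, an integrin chain of these cells, by 0.56 and -0.27. The endothelial genes Eng, a co-receptor of transforming growth factor beta, and Cdh5, the cadherin of endothelial junctions, differed by 0.39 and -0.17 and by 0.19 and -0.39. The collagen gene Col5a2 stood at 0.52, 0.16, 0.17 and 0.01 against -0.55, -0.68, -0.30 and -0.01 in aorta and at -0.01, -0.15 and -0.18 against 0.03, 0.05 and 0.01 in CD115+ cells. It did not overlap in either tissue (0.60 and -0.15), though 1 array of each genotype nearly touched. Timp1, an inhibitor of matrix proteases, differed by 1.39 and -0.13. In fat, Lipe, the hormone-sensitive lipase, differed by 0.23 and -0.16, Lpl, lipoprotein lipase, by 0.28 and -0.12, and Plin1, of the lipid droplet coat, by 0.14 and -0.25. In nerve, the receptor gene Ngfr was at 0.84 and -0.06 and the neuronal filament gene Prph at 0.75 and -0.19. Of 13 fatty acid synthesis genes, 11 were positive in aorta and negative in CD115+ cells by sign (medians 0.44 and -0.15), against 31.3% of all genes. Of the 13, 0 had an interaction at an unadjusted p under 0.05, and 0 passed that threshold in both tissues. In this list Fasn, the synthase, was at 0.36 and -0.08 and Acaca, the first committed enzyme, at 0.53 and -0.17.

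Single genes with opposite differences were of both directions. Of the 72 with p under 0.05 in both tissues, 36 were higher in aorta and lower in CD115+ cells (0.162%) and 36 the reverse (0.162%), and without CD115+ double-deficient replicate 1 these counts were 203 and 253, and without the pooled preparations 15 and 6. Of 37 with opposite signs and no overlap in either tissue (0.167%), 23 were higher in aorta and lower in CD115+ cells (0.104%) and 14 the reverse (0.0631%), and the difference between these counts was not tested. Mitf, a transcription factor of pigment cells, osteoclasts and mast cells, stood at 0.40, 0.03, 0.10 and 0.24 against -0.03, -0.16, -0.28 and -0.11 in aorta. In CD115+ cells it stood at -0.06, -0.15 and -0.27 against 0.24, 0.17 and 0.06. The genotypes did not overlap in either tissue, though in aorta the nearest arrays lay at 0.03 and -0.03 (differences 0.34 and -0.32). Zfhx4 differed by 0.56 and -0.36, and Fnip2, a partner of folliculin in nutrient sensing, by 0.62 and -0.21. Hcar1, the lactate receptor of fat cells, stood at 0.02, 0.36, 0.65 and 0.07 against -0.02, -0.11, -0.38 and -0.31 in aorta, and at -0.15, -0.24 and -0.25 against 0.21, 0.15 and 0.28 in CD115+ cells. In blood its gap between genotypes was wider than the spread within either, and in aorta 1 array of each genotype lay close to 0 (0.48 and -0.43). Kir3dl1, a receptor of the killer cell immunoglobulin-like family, differed by 0.21 and -0.29, Dbndd2 by 0.35 and -0.25, and Ssr3, a subunit of the translocon-associated complex, by 0.25 and -0.34. Of the reverse kind, Cenpq, a centromere protein, was at -0.66 and 0.25 and Fcho1, a protein of clathrin-coated pits, at -0.38 and 0.20.

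Apolipoprotein genes were among the opposite ones. Of 11 targets of the sterol-sensing LXR receptors and efflux genes, 6 were positive in aorta and negative in CD115+ cells, against 31.3% of all genes. Of the 11, 3 had a positive interaction at an unadjusted p under 0.05, against 3.41%. The list medians were 0.24 in aorta and -0.05 in CD115+ cells. Apoc1, an apolipoprotein, stood at 0.18, -0.09, 0.66 and 0.36 against -0.06, -0.32, -0.55 and 0.06 in aorta and at -0.02, -0.32 and -0.22 against 0.15, 0.28 and 0.02 in CD115+ cells. The blood groups were apart and the aorta groups overlapped (0.50 and -0.34). Its neighbour Apoe, disrupted in all mice of the study, differed by 0.32 and -0.20. Both had p under 0.05 in the tissue tests. Nr1h3, which encodes LXR alpha, differed by 0.24 and -0.13. Vcl, a cytoskeletal protein of cell adhesions (0.43 and -0.18), Ece1, which activates endothelin (0.24 and -0.33), and Khk, which phosphorylates fructose (0.29 and -0.33), were further opposite genes, chosen after their values were seen.

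Ribosomal protein and immediate early genes were mostly negative in aorta and positive in CD115+ cells. Of 14 ribosomal protein genes, 10 had these signs, against 23.2% of all genes, and 5 had a negative interaction at an unadjusted p under 0.05, against 3.49% (medians -0.23 and 0.07). The CD115+ median was -0.02 without CD115+ double-deficient replicate 2 and -0.06 without the pooled preparations. Rpl7, Rps3, Rps26 and Rps13 differed by -0.27, -0.43, -0.46 and -0.33 in aorta and by 0.14, 0.12, 0.14 and 0.06 in CD115+ cells. Ribosomal protein genes have processed pseudogenes that can share signal. Of 14 immediate early genes, which respond within minutes to stimulation and to handling of cells, 12 had these signs (medians -0.27 and 0.37) and 4 such an interaction. Ier2, Egr3 and Egr2 differed by -0.43, -0.44 and -0.53 in aorta and 0.52, 0.52 and 0.33 in CD115+ cells. In the proliferation list the medians were -0.49 and 0.05, and 4 of 19 had a negative interaction at that threshold. Mcm3, of the replicative helicase, differed by -0.43 and 0.35 and Rrm2, of ribonucleotide reductase, by -0.65 and 0.01. Among chemokines and receptors (medians -0.10 and 0.02, 4 of 20), Cxcl2, which draws neutrophils, differed by -0.08 and 0.95, Ccl12, which draws monocytes, by -0.93 and -0.20, and Cxcr4, a receptor for retention in bone marrow, by -0.63 and 0.39. The oxidative phosphorylation list went the other way by sign, with 11 of 15 positive in aorta and negative in CD115+ cells (0.08 and -0.07), against 31.3% of all genes. It had 1 positive interaction at that threshold, against 3.41% of all genes, and 0 members past it in either tissue test. The class I presentation (-0.10 and -0.03), brown adipocyte (0.11 and -0.08), cholesterol synthesis (0.21 and -0.15) and leukocyte adhesion (-0.34 and 0.06) lists had 0 such interactions. The erythroid list (0.27 and 0.04) had 1 positive of 5. Skeletal muscle markers (-1.25 and -0.04) had 1 negative of 14, and their mean spread from -1.36 to 1.93 over ApoE-deficient aortas.

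The count of adjusted interaction calls differed from 0 without any 1 of 3 arrays. Without CD115+ double-deficient replicate 1, 58 genes had an adjusted interaction p under 0.05 in limma, 42 more negative and 16 more positive in aorta, and the differences of 56 had opposite signs in the tissues. Ly6d (-5.73), Blk (-2.73) and H2-DMb2 (-5.02) were among the negative ones and Zfhx4 (1.04), Lgals4 (1.16), Cdh19 (1.38) and Bmpr2 (0.89) among the positive ones. Without aorta ApoE-deficient replicate 3, 30 genes passed, 28 negative and 2 positive. These included Glycam1 (-4.77), Fcer2a (-5.20), Ltb (-4.62), Lef1 (-2.60) and Cd4 (-1.36) and, on the positive side, Fnip2 (0.98) and Nbea (0.75). Leaving out aorta double-deficient replicate 2 gave 1 gene, and each of the other 11 arrays 0. The genes opposite in both tissue tests numbered 456 without CD115+ double-deficient replicate 1 and 30 without CD115+ double-deficient replicate 2. No array was left out for its values in the counts given for all 14 arrays.

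**Figure D5:**
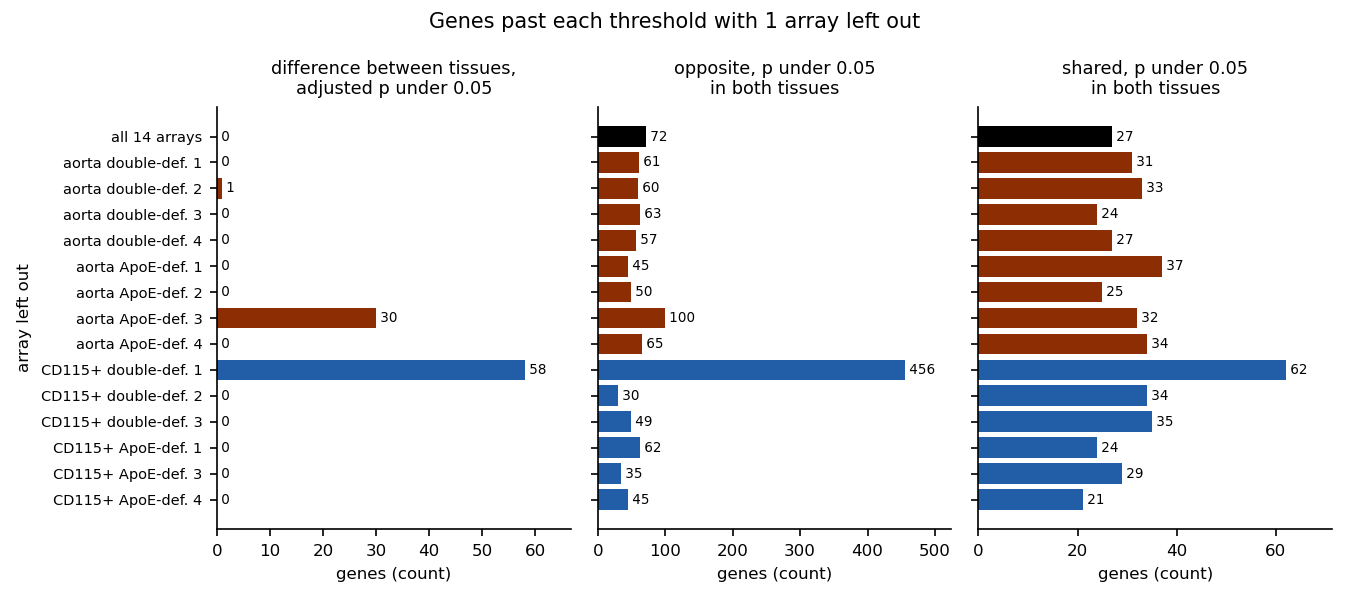
Genes past each threshold (x axis, count) with all 14 arrays (black) and with each array left out (y axis; brown, aorta; blue, CD115+). The difference between tissues at an adjusted p under 0.05 is called for 30 genes without aorta ApoE-deficient array 3 and 58 without CD115+ double-deficient array 1, where the opposite and shared counts are also highest (456 and 62).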

How the data were processed

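The authors deposited 1 table of log values, read here as log2, for 33793 probe sets on 14 arrays; RNA (1 ng) was amplified and biotin-labelled, per the labels' protocols. The sources used here do not give log base, normalization or summarisation, and every probe set had been centred on its median within each tissue (0 within 1e-06). Platform annotation gave 23521 probe sets 1 symbol, 1814 several and 8458 none; only the first were kept and averaged to 22180 genes, of which 22139 matched a GRCm38.p6 gene. Groups came from sample titles. Depth does not apply to arrays, and their number limits the precision.

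Genes were tested with limma 3.58.1 (R 4.3.3, lmFit and eBayes, two-sided, Benjamini-Hochberg over all genes, threshold 0.05). A joint fit of 4 group means gave the interaction and the average over tissues. Fits within each tissue gave tissue differences, and a shared or opposite gene had an unadjusted p under 0.05 in both. Scripts were tested on simulated data. The members and the 34 lists (439 of 487 genes measured) were chosen with earlier results of these data known.

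Named genes were Ltbr, the 6 of smallest interaction p per sign, shared and opposite genes with groups that did not overlap (up to 8 per kind), and up to 4 members per list, without unnamed gene models, small RNAs, chemosensory receptors and pseudogenes; others are said to have been chosen after their values were seen. Some genes that the rule allows are not reported here. A rounding step of 2 to the power -20 (tolerance 6e-08, at least 5 arrays with absolute values under 2) marked the high signal class, meant for levels of 8 or more. Alternatives were single arrays left out, a replicate block, array weights, robust or unmoderated variances, other gene summaries, scalings, filters and thresholds.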

Additional observations from a re-analysis of the deposited data

Results flagged for a closer look

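Among 288 aorta groups of 4 arrays examined (110 genes and 34 list means in both genotypes), 12 held 1 array far from the other 3 by Dixon's criterion, where chance gives about 1 in 20 groups, so 12 is no more than that rate gives. ApoE-deficient aorta 3 accounted for 4 of them, all low. There Fcer2a, the low-affinity IgE receptor of B cells, was -0.51 against 3.10 to 3.71 on the other arrays, and Klrd1, a lectin receptor chain of killer cells, -0.10 against 1.95 to 2.37. The mean of the receptor pathway list was -0.24 against 0.46 to 0.56, and that of lymphoid stroma and venules -0.0703 against 1.01 to 1.17.

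In ApoE-deficient aorta 4, the homing receptor gene Ccr9 was 0.71 (others 0.19 to 0.25) and the immediate early mean 0.56 (others 0.00 to 0.07). In double-deficient aorta 4, Batf3 was 0.80 (others 0.09 to 0.14), Oas3 -0.35 (others -0.01 to 0.03) and the skeletal muscle mean 1.25 (others -1.17 to -1.03). Gal3st2b was 0.98 in ApoE-deficient aorta 2 (others 0.16 to 0.25) and -0.16 in double-deficient aorta 2 (others -0.52 to -0.48). The ribosomal protein mean was 0.22 in ApoE-deficient aorta 1 (others 0.10 to 0.11). Groups of 3 CD115+ arrays were not examined in this way.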

How the results depend on the processing

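With all arrays, 0 interactions passed the adjusted threshold, 1530 the unadjusted one and 1 average the adjusted one, and 27 genes were shared and 72 opposite. Leaving out each array gave 0 to 58 adjusted and 938 to 2470 unadjusted interactions, 0 to 11 averages, 21 to 62 shared and 30 to 456 opposite genes. In limma, a replicate block within tissue gave 628 unadjusted interactions, 0 averages and 14 opposite genes, with Ltbr at -1.10 (adjusted p = 0.591). In that fit, CD115+ arrays without a partner of the same number add nothing to the genotype difference, so fewer arrays carry it. Same-numbered samples had correlations of deviations from -0.47 to 0.17. So few pairs cannot settle whether the numbers pair samples. Array weights gave 2736 unadjusted interactions, 3 averages, 41 shared and 256 opposite; the 1533 genes of high signal in both tissues, fewer genes tested, gave 133, 0, 1 and 3. Without the pooled preparations, with fewer samples, 469, 0 and 21 opposite genes were found. Without moderation 0 averages, 17 shared and 30 opposite genes passed, and averages numbered 3 with a spread for each tissue and 0 with tissues scaled alike. A p under 0.01 in both tissues left 1 shared and 2 opposite genes, and groups without overlap 37 opposite ones. Where no construction is named, the cause was not tested. Adjusted interactions stayed at 0 in all these settings but 3 left-out arrays. No called gene changed direction, 23 single-gene values gained and 14 lost their call, and 21 list values moved by more than 1 SD. The interaction medians of the platelet, neutrophil, Ly6C-low, erythroid, chemokine and class I lists changed sign in at least 1 setting. Few arrays and 1 ng of input limit the precision.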
